A study of Homo sapiens with 19 samples.

Results

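The 10 genes described here belong to a list for signalling by transforming growth factor β (TGF-β) and bone morphogenetic protein (BMP). Among them are the ligand gene TGFB2, the receptor gene TGFBR2, and LTBP1 and LTBP2 of the latent TGF-β binding family, grouped here as latency genes. The others are the SMAD genes SMAD3 and SMAD7, the repressor genes SKI and TGIF1, and the targets PMEPA1 and ID1. All 10 are among 20037 protein-coding genes placed on chromosomes 1 to 22, X and Y. The members were chosen by the measured regions themselves: each was already known to lie at a superenhancer or to have an OCT-2 peak in these lists. Their counts are therefore a description, with no test. Each was placed by its RefSeq position in GRCh38 (hg38), and regions were counted in the gene body and within 10, 50 and 200 kb of it.

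The cells are MDA-MB-231, an established human line of triple-negative breast cancer, in a polyclonal population with stable luciferase and POU2F2 transgenes (231Pa_Luc+OCT-2) and a polyclonal control with luciferase and GFP (231Pa_Luc+GFP). POU2F2 encodes OCT-2, a transcription factor that binds the octamer element. Luciferase is thus common to both, and neither label names the promoter that drives a transgene. Of the 19 samples of the series, 6 stand behind the values here: H3K27ac ChIP of both populations and OCT-2 ChIP of 231Pa_Luc+OCT-2, with 2 replicates each. For each of these 3 groups the authors deposited a single list of positions made from both replicates. The lists hold no read counts, so the depth is unknown, no value per replicate can be given and the spread between replicates could not be measured. The lists hold no expression either, so the POU2F2 transgene could not be checked in them. The series held no OCT-2 ChIP of the GFP cells, so the peaks do not separate OCT-2 made from the transgene from the cells' own.

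TGF-β ligands are secreted in a latent form that latent TGF-β binding proteins tether to the extracellular matrix. Once released, the ligand joins type I and type II receptor kinases, which phosphorylate receptor-activated SMAD proteins; these enter the nucleus with a common partner SMAD and act on target genes, while nuclear co-repressors and inhibitory SMADs limit the response. In advanced breast cancer the pathway is known for its part in invasion and metastasis. Superenhancers are broad stretches of dense H3K27 acetylation, a mark of active enhancers.

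The list of 231Pa_Luc+OCT-2 held 518 superenhancers, of which 204 overlapped no region of 231Pa_Luc+GFP ("OCT-2-only") and 314 overlapped one by 1 bp or more ("shared"), and the list of 231Pa_Luc+GFP held 337. The OCT-2 list held 5741 peaks with a median width of 267 bp. As a check of the cell type, all 6 mesenchymal and basal-like markers (VIM, CD44, AXL, EGFR, ITGB4 and LAMB3) lay within 10 kb of a superenhancer in both populations. Of 12 markers of luminal epithelium, leukocytes and fibroblasts, 0 did in either population. Among all protein-coding genes, 5.74% lay within 10 kb of a region in the OCT-2 list and 4.31% in the GFP list. The gene lists were chosen with earlier results of these data known, so this check is not an independent one.

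OCT-2-only superenhancers overlapped 5 of the 10 genes. These were LTBP2 of the latent TGF-β binding family, the receptor gene TGFBR2, both co-repressor genes (SKI and TGIF1) and the target ID1. With the OCT-2 list limited to its 337 widest regions, the length of the GFP list, TGFBR2 and ID1 were left, and with each region given to its nearest protein-coding gene alone, LTBP2, TGFBR2 and TGIF1. With all regions, the same 5 were counted at 10, 50 and 200 kb, where the share of all protein-coding genes was 1.93, 2.71 and 5.73%. SMAD3 alone lay at a shared region, and hence was the only member at a superenhancer of the GFP cells. At 200 kb, shared regions next to TGIF1 and ID1 made this 3 of 10. The shares of all protein-coding genes near a shared region were 3.87, 5.35 and 10.9% at 10, 50 and 200 kb, and near a region of the GFP cells 4.31, 5.81 and 11.8%. TGFB2, LTBP1, SMAD7 and PMEPA1 had no superenhancer within 200 kb in either list. Because the members were picked on these regions, nothing about the pathway is read from their counts against these shares.

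OCT-2 peaks lay in the gene body of 8 of 10 members, and SMAD3 and ID1 had their nearest peak at 23.4 and 44.1 kb. Within 10 kb, 8 of 10 had a peak, against 15.5% of protein-coding genes, and within 50 kb all 10 had one, against 28.9%. At 200 kb a peak was no longer a rare feature: 58.1% of protein-coding genes had one there. A gene with an OCT-2-only region and a peak, each within 10 kb, was found 174 times (0.868%), and LTBP2, TGFBR2, SKI and TGIF1 were 4 of these. Members had a median of 1 peak within 10 kb and 2 within 200 kb, and all protein-coding genes medians of 0 and 1. The members were also long genes, with a median of 84.8 kb (1.22 kb for ID1 to 453 kb for LTBP1) against 24.1 kb. Since each member was chosen for a superenhancer or a peak in these lists, nothing is read from their peak counts against all genes. The part of gene length in these counts was not tested.

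**Figure D1:**
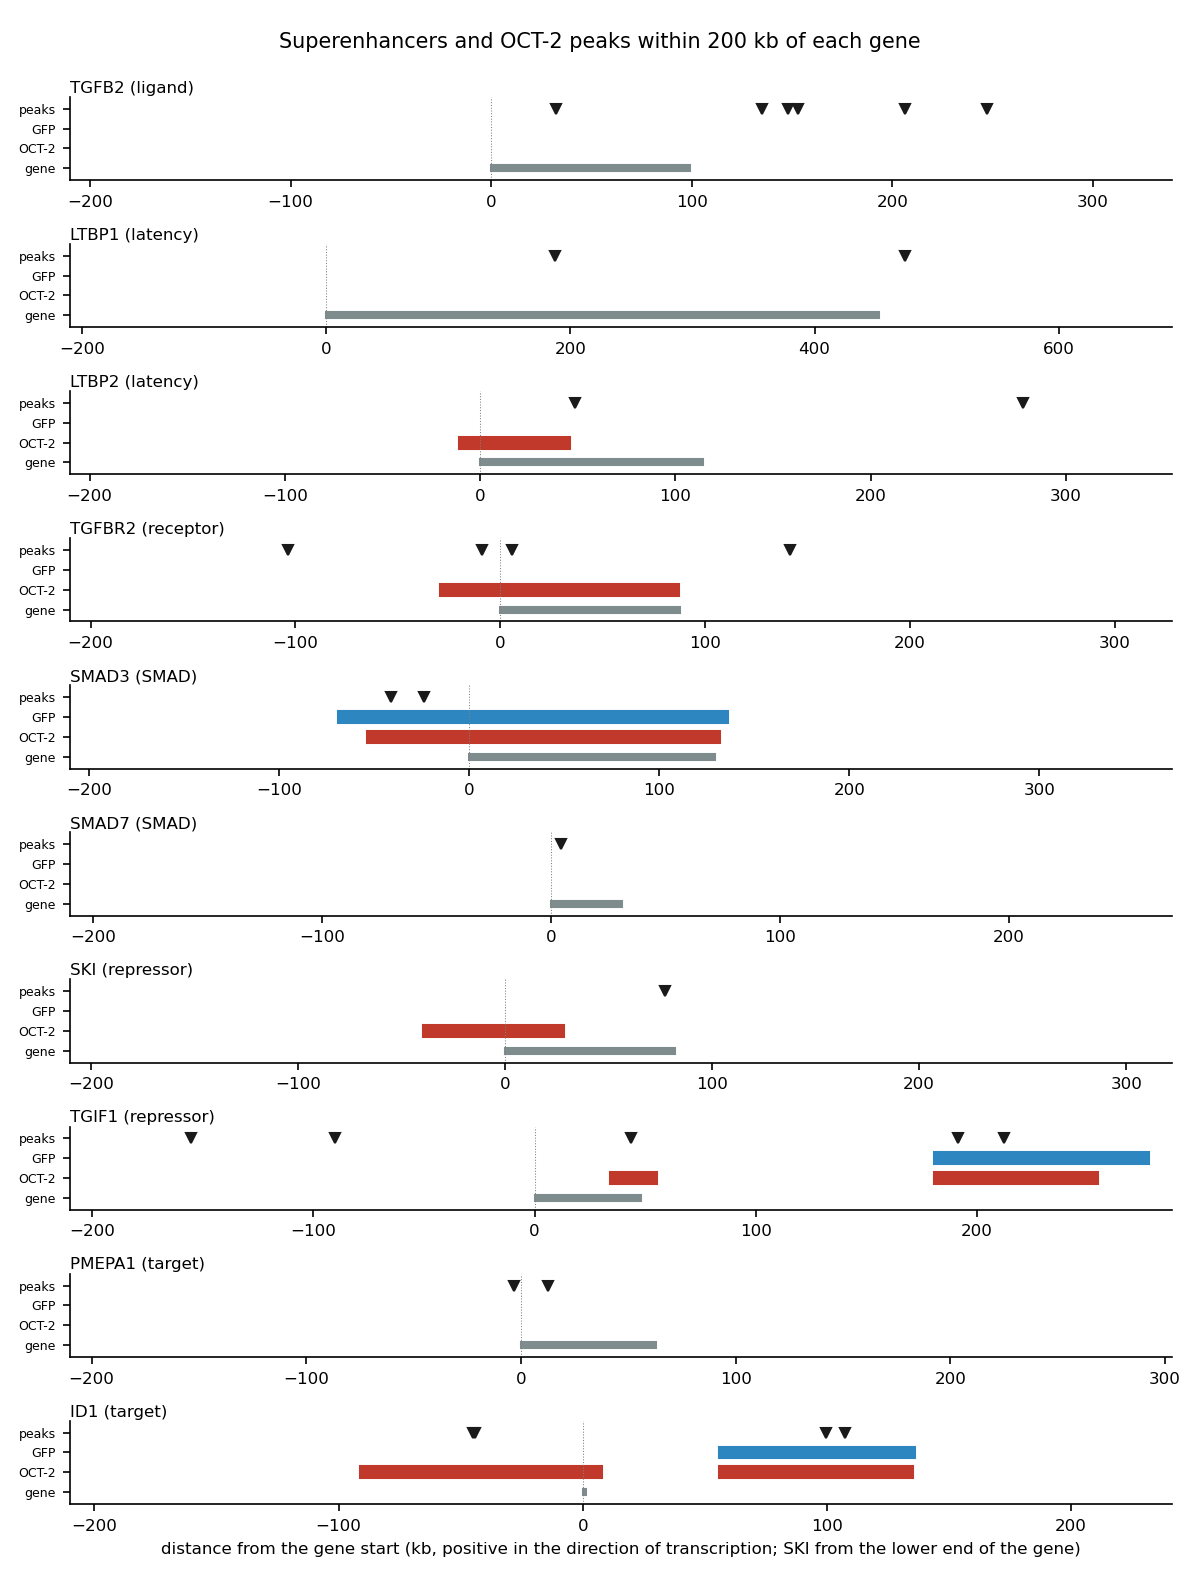
Maps of the 10 loci, each drawn to its own scale, with the distance from the gene start in kb on the x axis (positive in the direction of transcription; SKI, whose strand was not in the table used, from its lower end). Grey bars are gene bodies, red and blue bars superenhancers of 231Pa_Luc+OCT-2 and 231Pa_Luc+GFP, and triangles OCT-2 peaks; red without blue at the gene is seen for LTBP2, TGFBR2, SKI, TGIF1 and ID1, and both colours for SMAD3.

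TGFB2, which encodes a TGF-β ligand, had OCT-2 peaks without a superenhancer. The gene (chr1:218345336-218444619, plus strand) held 1 peak in its body, at chr1:218377342-218377655, 32.2 kb downstream of its start. Another 5 peaks lay beyond its far end, at gaps of 35.5, 48.4, 53.7, 107 and 148 kb. With 6 peaks within 200 kb it had the most of the 10 members, and none of them lay upstream of the gene. The peaks at 48.4 and 53.7 kb were the closest together, 5.04 kb apart. The nearest superenhancer was 3362 kb away in the OCT-2 list and 3729 kb away in the GFP list.

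LTBP1 encodes a protein that holds latent TGF-β in the matrix. At 453 kb (chr2:32946953-33399509, plus strand) it was the longest member, yet it held 1 peak in its body and 2 within 200 kb, and its nearest superenhancer lay 3038 kb away. The peak in the body, chr2:33134251-33134497, was the only peak of any member that met an annotated promoter window. RefSeq gives LTBP1 transcript starts at 32946953, 33134369 and 33134596, and the peak lay across the second, 187 kb inside the gene, while the window of the outermost start was 187 kb from any peak. The promoter of the second start (chr2:33134119-33134418, plus strand, 250 bases before to 50 after the start) is shown with the bases under the peak in capitals, 168 of 300:
LTBP1 second start: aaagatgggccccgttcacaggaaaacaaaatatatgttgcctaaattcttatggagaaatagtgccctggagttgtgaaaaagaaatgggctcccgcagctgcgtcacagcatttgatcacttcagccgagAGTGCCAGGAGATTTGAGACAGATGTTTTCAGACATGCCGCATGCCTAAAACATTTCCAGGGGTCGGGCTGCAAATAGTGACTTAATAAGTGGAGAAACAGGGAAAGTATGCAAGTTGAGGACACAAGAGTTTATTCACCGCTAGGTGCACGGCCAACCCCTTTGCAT
Within the capitals, 3 stretches differ at a single base from the octamer ATGCAAAT or its reverse complement. They read CTGCAAAT and ATGCAAGT, beginning 50 and 10 bases before the start, and CTTTGCAT, beginning 42 bases after it. Of all 35116 promoter windows of this length, 17.1% held 1 such stretch or more, counting the exact octamer, and 0.51% held 3 or more. The exact octamer was not in this window.

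LTBP2, a further gene of the latent TGF-β binding family whose product is a matrix protein, differed from LTBP1 in carrying a superenhancer of the OCT-2 cells. The region (chr14:74566293-74623281, 57.0 kb) reached from 11.0 kb upstream of the only annotated start to 45.9 kb inside the gene (chr14:74498183-74612237, minus strand). It covered 40.3% of the gene body and no other protein-coding gene. No OCT-2 peak lay in it. The peak of the gene body, chr14:74563781-74564032, was 2.26 kb beyond its inner edge and 48.3 kb from the start, and the next was 164 kb away. In the GFP list the nearest region was at 1819 kb.

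TGFBR2 encodes the type II receptor kinase that binds TGF-β and starts the intracellular signal. Its OCT-2-only superenhancer was the widest of the 5 at members, at 117 kb (chr3:30577162-30693792), and ranked 146 of 518 by width. It began 29.2 kb upstream of the gene (chr3:30606356-30694142, plus strand), held both annotated starts and covered 99.6% of the gene body. It also held the overlapping protein-coding gene LOC105377015. The GFP list had no region within 13157 kb. The region held 2 OCT-2 peaks, on either side of the starts and 14.2 kb apart. One lay upstream (chr3:30597314-30597610, gap of 8.75 kb to the gene) and the other inside the gene (chr3:30611771-30612111), 5.58 kb from its start. A further peak was found 103 kb upstream and another 53.6 kb past the end, outside any superenhancer and the latter in the gene GADL1. The window of the second start (chr3:30606351-30606650) is shown because it holds the only match to the searched motifs at this gene, in capitals:
TGFBR2 second start: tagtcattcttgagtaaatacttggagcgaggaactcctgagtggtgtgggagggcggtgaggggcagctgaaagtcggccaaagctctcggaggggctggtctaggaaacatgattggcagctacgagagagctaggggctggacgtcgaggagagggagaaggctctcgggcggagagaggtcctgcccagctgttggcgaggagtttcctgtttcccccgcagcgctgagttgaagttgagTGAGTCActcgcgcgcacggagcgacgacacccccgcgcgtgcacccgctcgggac
This match to the AP-1 motif TGANTCA begins 6 bases before the start, and the nearest OCT-2 peak was 5.12 kb from the window.

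**Figure D2:**
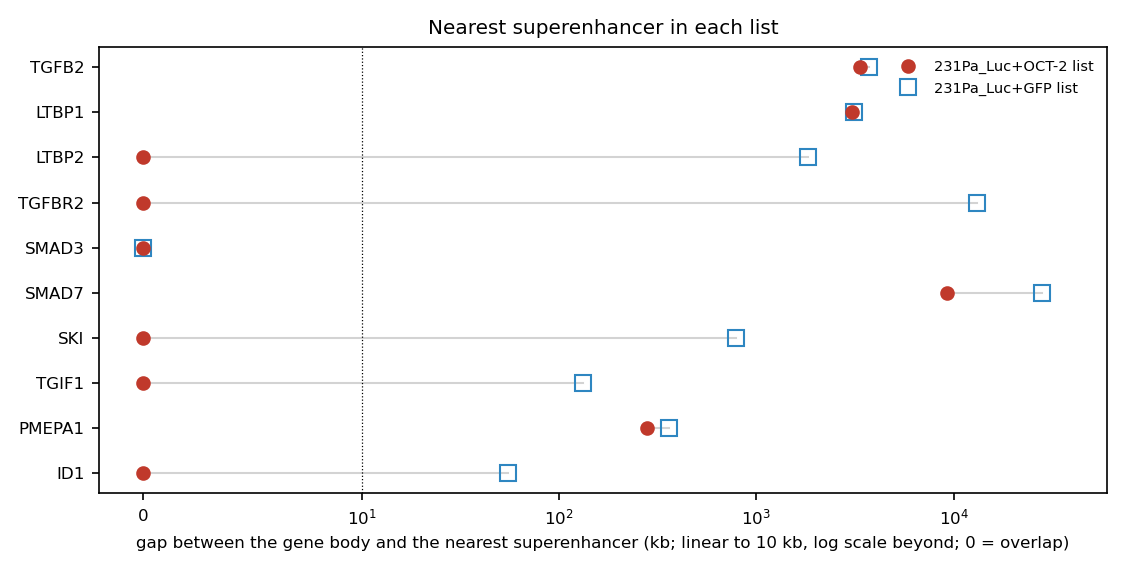
Gap in kb between each gene body and the nearest superenhancer in the list of 231Pa_Luc+OCT-2 (red circles) and of 231Pa_Luc+GFP (blue squares), on an axis that is linear to 10 kb (dotted line) and logarithmic beyond. LTBP2, TGFBR2, SKI, TGIF1 and ID1 sit at 0 in the OCT-2 list and between 54.7 and 13157 kb in the GFP list; SMAD3 sits at 0 in both.

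SMAD3 encodes the receptor-activated SMAD of the TGF-β branch. Its superenhancer was present with and without forced OCT-2 and was wide in both lists: 186 kb with OCT-2 (chr15:67011910-67197633, rank 42 of 518) and 205 kb with GFP (chr15:66996683-67201899, rank 33 of 337). Both spanned the whole gene (chr15:67065602-67195169, plus strand) and all 5 annotated starts. The region of the GFP cells reached 15.2 kb further on the upstream side and 4.27 kb further on the downstream side. The OCT-2 peaks of this region, chr15:67024527-67024901 and chr15:67041953-67042190, lay 40.7 and 23.4 kb upstream of the gene, and 0 lay in its body. Its outermost promoter (chr15:67065352-67065651) is shown because it was the only window of a member with an exact octamer. Capitals mark the octamer, read here on the opposite strand as ATTTGCAT from 8 bases before the start, and the 2 copies of GGCGCC, a GC-rich element bound by BMP-type SMADs:
SMAD3 outermost start: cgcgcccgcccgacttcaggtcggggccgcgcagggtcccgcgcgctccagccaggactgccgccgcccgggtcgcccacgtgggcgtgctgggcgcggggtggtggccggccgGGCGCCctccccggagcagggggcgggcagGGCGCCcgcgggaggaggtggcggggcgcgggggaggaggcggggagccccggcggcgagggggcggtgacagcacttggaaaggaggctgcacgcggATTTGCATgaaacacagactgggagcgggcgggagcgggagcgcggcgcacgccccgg
The exact octamer stood in 1.77% of all 35116 windows. The window was 23.2 kb from the nearest OCT-2 peak.

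SMAD7, which encodes an inhibitory SMAD induced by the pathway, had 1 OCT-2 peak and no superenhancer. The peak (chr18:48946599-48946855) lay in the gene body (chr18:48919853-48950965, minus strand), 4.24 kb downstream of the outermost start and 2.61 kb from the nearest annotated start. It was the only peak within 200 kb. The nearest superenhancer was 9225 kb away in the OCT-2 list and 28081 kb away in the GFP list.

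SKI, whose product binds SMAD complexes and represses their targets, lay at an OCT-2-only superenhancer of 67.9 kb (chr1:2188933-2256846). This region covered the lower 34.8% of the gene (chr1:2228319-2310213) and also met the neighbouring gene FAAP20. It held no OCT-2 peak. The single peak of the locus, chr1:2305389-2305667, lay in the other end of the gene body, 48.5 kb from the region, and no second peak was found within 200 kb. The GFP list came no closer than 792 kb.

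TGIF1 encodes a homeodomain protein that recruits co-repressors to SMADs. Its OCT-2-only superenhancer was the narrowest at any member, 21.0 kb (chr18:3446233-3467233), and only 2.90% of the 518 regions were narrower. It covered 28.7% of the gene body (chr18:3412009-3459978, plus strand), at its downstream end, and held 6 of the 7 annotated starts. The outermost start lay 34.2 kb outside it. An OCT-2 peak, chr18:3455336-3455591, lay inside the region and the gene, 3.87 kb from the nearest annotated start. No other peak was within 50 kb, and 4 more were within 200 kb. Of these, 2 lay in a shared superenhancer 133 kb downstream, at DLGAP1, which spanned 74.2 kb in the OCT-2 list and 97.3 kb in the GFP list.

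PMEPA1, a target that feeds back as an inhibitor of TGF-β signalling, had 2 OCT-2 peaks near its starts and no superenhancer within 200 kb. One peak (chr20:57714478-57714717) lay 3.01 kb upstream of the gene (chr20:57648396-57711472, minus strand), and the other (chr20:57698892-57699172) 12.4 kb inside it. The nearest superenhancer was at 279 kb in the OCT-2 list and 362 kb in the GFP list, the smallest gaps among the 4 members without one within 200 kb.

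ID1 is a classical BMP target that encodes an inhibitor of basic helix-loop-helix factors. The gene is 1.22 kb long (chr20:31605289-31606510, plus strand) and lay at the edge of an OCT-2-only superenhancer of 98.9 kb (chr20:31514188-31613092), of which it filled 1.24%. The region stretched 91.1 kb upstream and 7.80 kb downstream of its start, and also held HM13 and MCTS2. Its 2 OCT-2 peaks, chr20:31560088-31560358 and chr20:31560922-31561180, lay 0.564 kb apart in the body of HM13, 44.9 and 44.1 kb from ID1. On the other side, 54.7 kb away, lay a shared superenhancer at BCL2L1 and TPX2 (79.5 kb in the OCT-2 list, 80.0 kb in the GFP list) with 2 more peaks. Which of these genes a region acts on is not given by its position.

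**Figure D3:**
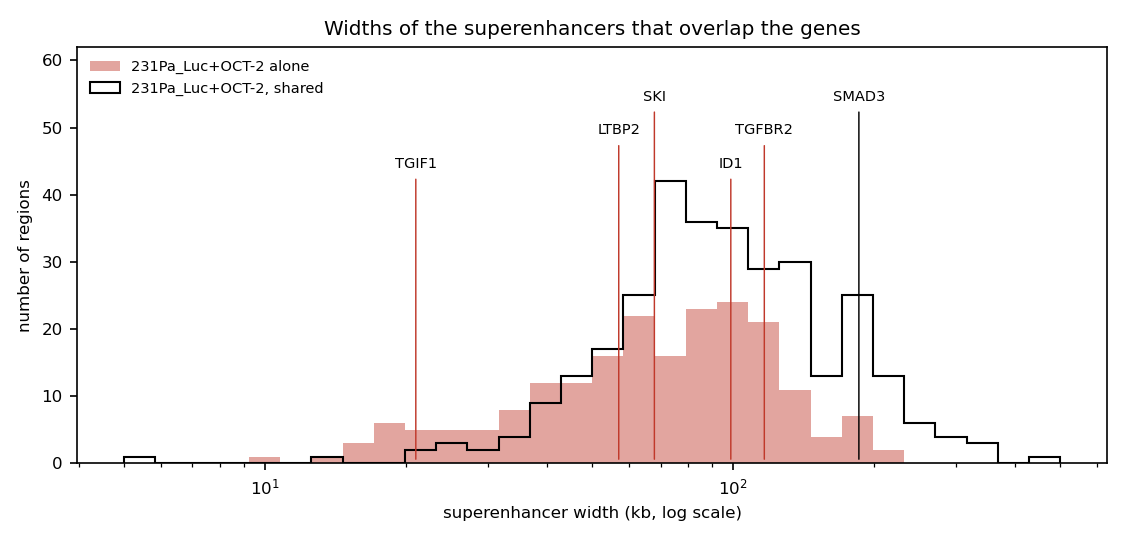
Number of 231Pa_Luc+OCT-2 superenhancers by width (x axis in kb, log scale), with OCT-2-only regions filled and shared regions outlined; vertical lines mark the regions that overlap a member. The 5 OCT-2-only regions at members run from 21.0 kb (TGIF1) to 117 kb (TGFBR2) and SMAD3, a shared region, lies at 186 kb.

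At members, as over all superenhancers of the OCT-2 cells, some regions held a peak and others did not. The 6 superenhancers that overlapped members held 7 OCT-2 peaks, or 12.8 per Mb, and 4 of the 6 held at least 1. Those of LTBP2 and SKI held none, although both genes had a peak in the body. Over all 518 regions the density was 17.9 per Mb and 78.4% held a peak. The 5 OCT-2-only regions at members were 67.9 kb wide at the median, and all 204 were 73.0 kb. Of the 10 peaks within 10 kb of a member, 3 lay inside a superenhancer, at TGFBR2 and TGIF1. Of all 29 peaks within 200 kb, 11 did (37.9%), against 15.8% of all 5736 placed peaks, and 6 of the 11 were in regions that the GFP cells had too. Because members were chosen for lying at a superenhancer or having a peak, nothing is read from the first share against the second. For the same reason nothing is read from the peaks in their 6 regions against all 518.

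Gene bodies held most of the close peaks, in members that were chosen for having peaks and are long genes. Of the 10 peaks within 10 kb, 8 were in the gene body and the others lay upstream of TGFBR2 and PMEPA1. All protein-coding genes had a mean of 0.150 peaks in the body and 0.212 within 10 kb. Most close peaks thus lay in the body there too, and this is not read as a trait of the members. Of the 29 within 200 kb, 9 were upstream and 12 downstream of the member. Of the same 29, 4 had their centre within 5 kb of an annotated start of the member (LTBP1, SMAD7, TGIF1 and PMEPA1) and 1 within 1 kb (LTBP1). The 10 peaks within 10 kb were 240 to 341 bp wide, with a median of 268 bp. Peak counts grew with the window for most members, but few peaks lay close to a window edge. The outer peak of TGFBR2, at 8.75 kb, was the one nearest inside the 10 kb limit, and the closest outside were those of LTBP1 at 21.3 kb and SMAD3 at 23.4 kb. At 50 kb, TGFB2 had a peak just inside (48.4 kb) and TGFB2 and TGFBR2 peaks just outside (53.7 and 53.6 kb), and the shared region next to ID1 lay just outside (54.7 kb).

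**Figure D4:**
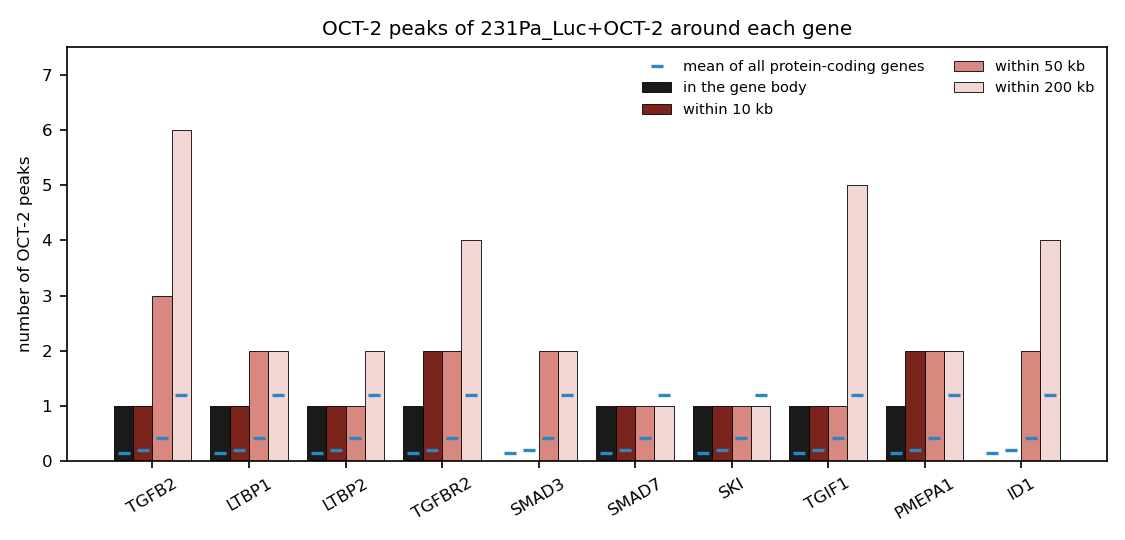
Number of OCT-2 peaks in the gene body and within 10, 50 and 200 kb for each member (bars), with the mean over all 20037 protein-coding genes for the same window as a blue dash. SMAD3 and ID1 have no bar below 50 kb, and TGFB2 reaches the highest count, 6 within 200 kb.

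Promoter windows from RefSeq (GRCh38.p14) matched 9 of the 10 members, with 27 windows, and SKI had none. An OCT-2 peak overlapped 2 of the 27, both at LTBP1, a member chosen for having a peak, and by the same peak, against 1.41% of all windows. In a superenhancer of the OCT-2 cells lay 15 of the 27, all of members chosen for such a region, against 4.65% of all windows. The median GC content was 57.0% (38.0 to 80.3%) in the members and 58.7% in all windows. Motifs were searched on both strands, and in the members' windows no match of one motif overlapped a match of another. Both inner LTBP1 windows share bases, so 2 of the stretches shown above are counted in each. The exact octamer ATGCAAAT was found at SMAD3 alone, and with up to 1 mismatch at 5 of 9 members (LTBP1, SMAD3, SMAD7, TGIF1 and PMEPA1), in 22.2% of their windows against 17.1% of all. The SMAD palindrome GTCTAGAC was in 0 of the 27 windows and in 0.202% of all. GGCGCC stood at LTBP2, SMAD3 and PMEPA1 (11.1% of windows, 19.2% of all) and TGANTCA at TGFBR2, SMAD3 and TGIF1 (18.5% of windows, 7.71% of all). Most of the members' windows with TGANTCA were those of TGIF1, which supplied 7 of the 27. The matches read TGAGTCA at TGFBR2 and SMAD3, but TGAATCA or TGATTCA at TGIF1. Over the whole table, 15.7% of the 496 windows under an OCT-2 peak held the exact octamer. A match in letters is not evidence of a bound site.

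Beyond the members, OCT-2 peaks lay within 10 kb of genes of every step but the SMADs, while no further gene had an OCT-2-only superenhancer within 10 kb. A wider list of 74 genes (12 ligands, 7 latency genes, 14 receptors, 8 SMADs, 15 repressors and antagonists and 18 targets, the members included) had a superenhancer of the OCT-2 cells within 10 kb at 9 (12.2%), of which 6 are members chosen for lying at one. Of the 64 that are not members, 3 did (4.69%), against 5.74% of protein-coding genes. Taking out the 6 members lowers the share left among the 64. Neither this share nor the lack of further OCT-2-only genes is therefore read as a result. All 5 OCT-2-only genes were the members already described. The 4 at shared regions were SMAD3, the stress-induced ligand gene GDF15, the latency gene LTBP3 and SMURF2, a ubiquitin ligase that acts on receptors and SMADs. Within 10 kb of an OCT-2 peak lay 23 of the 74 (31.1%), which were 2 of 12 ligands, 3 of 7 latency genes, 4 of 14 receptors, 1 of 8 SMADs, 7 of 15 repressors and 6 of 18 targets. Among these 23 were 8 members, chosen for a superenhancer or a peak, so the split by step is not read as a result. Of the 64 that are not members, 15 (23.4%) had a peak, against 15.5% of protein-coding genes. The list was chosen with earlier results of these data known. Of the 15 genes, 10 had a peak in the gene body, and the part of gene length was not tested. The 15 included the BMP receptor gene BMPR1B, the co-receptor gene TGFBR3, the activin receptor gene ACVR1, the ubiquitin ligase gene SMURF1 and the transcriptional repressor gene ZEB2. Among the targets, a peak lay 3.41 kb from CCN2, which encodes a matricellular protein. SMAD2 and SMAD4, the latter the common SMAD, had neither a superenhancer nor a peak within 200 kb (nearest peak 1016 and 2083 kb). TGFBR1, the partner receptor of TGFBR2, had 4 peaks within 200 kb, the nearest at 52.9 kb, and its nearest superenhancer at 846 kb in both lists. In all, 47 of the 74 had neither feature within 10 kb.

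**Figure D5:**
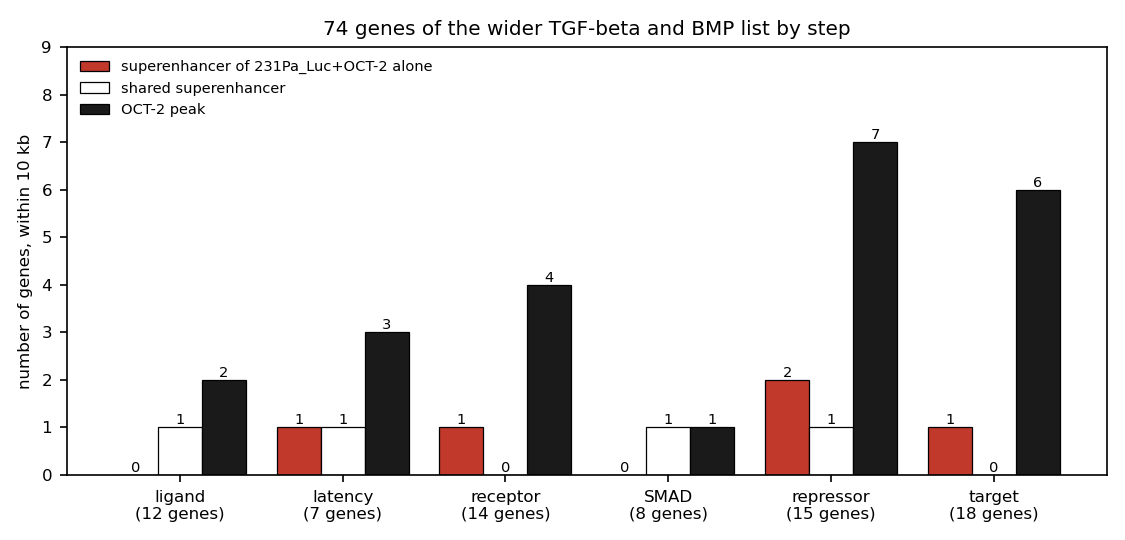
Number of genes of the wider list (y axis) with an OCT-2-only superenhancer, a shared superenhancer or an OCT-2 peak within 10 kb, by step of the pathway, with the number of genes per step under each group. OCT-2-only regions are found at 1 gene grouped under latency (LTBP2), 1 receptor, 2 repressors and 1 target, and peaks at 1 to 7 genes in every step. The counts include the members, which were chosen for a superenhancer or a peak, so the steps are not compared.

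The pattern of TGFBR2, an OCT-2-only superenhancer and no shared one within 10 kb with 2, 2 and 4 peaks within 10, 50 and 200 kb, was met exactly by 7 of the other 374 protein-coding genes of that class. Likeness here is the summed difference of the 3 peak counts, over 1 merged list. In alphabetical order the first of the 7 are ARHGAP18, ARHGAP26 and FNDC3B. HM13, which shares the region of ID1, and LOC105377015, which shares that of TGFBR2 and so its peaks, were among the others.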

How the data were processed

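Per the labels' protocols, each ChIP used 5 µg of antibody (H3K27ac or OCT-2) and each library 15 cycles of PCR. Per the submitters' processing notes, hg19 and hg38 were the builds, and bedtools, HOMER, Bowtie and Bowtie2 2.2.2.6 the tools. For the calling thresholds and the use of input, no statement is given in the sources used here. The authors deposited 10 lists of intervals without scores or counts. The 3 hg38 lists were used, and the 7 in hg19 were not, because the gene table is of GRCh38.p14. Their build was read from file names or, for MDA-MB-436, from region ends beyond hg38 chromosomes.

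Intervals were read as BED and are printed 1-based. A gene counted at a region when the gap to its body was at most 10 kb (main), 0, 50 or 200 kb. 5 of 5741 peaks on unplaced contigs were left out. All 74 genes of the wider list matched by symbol. Promoter sequences are from RefSeq (GRCh38.p14). The members and gene lists were chosen with earlier results of these data known. Genes named are the members, list genes at a region or peak, genes sharing a region with a member, and the genes most like TGFBR2, ties taken alphabetically. SMAD2, SMAD4, TGFBR1, GREM1, BMP7, TGFB1, ID3 and the genes at neighbouring regions or distant peaks were named after their values were seen. No test was run. The overlap code was checked on simulated intervals. Alternatives are given in the closing section. Analyses used Python 3.11.15, numpy 2.4.6, pandas 2.3.3 and matplotlib 3.10.9.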

Additional observations from a re-analysis of the deposited data

How the results depend on the processing

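Of 40 alternative settings over 8 counts, 27 stayed within 1.5 times the value reported and 13 did not; 2 of the 27, for regions of the GFP cells, change only the OCT-2 list and could not move it. Members at an OCT-2-only region numbered 3 (LTBP2, TGFBR2 and TGIF1) when each region was given to its nearest protein-coding gene alone. They numbered 2 (TGFBR2 and ID1) when the OCT-2 list was limited to its 337 widest regions, of 69.7 kb or more, which by construction drops the narrower ones of LTBP2, SKI and TGIF1. At 200 kb, members at a shared region and at a region of the GFP cells became 3 each in place of 1. Members with a peak numbered 5 in place of 8 within 10 kb of either gene end (TGFBR2, SMAD7, SKI, TGIF1 and PMEPA1). They also numbered 5 within 10 kb of an annotated start, a setting chosen after seeing the data. There LTBP1 was counted and SKI, which had no promoter window, could not be. With only peaks at or above the median width they numbered 4. For the 74 genes the peak count of 23 became 56 at 200 kb, 11 at either gene end, 11 with the wider peaks and 9 at annotated starts. Peaks in members' superenhancers numbered 4 in place of 7 with the wider peaks, and members with an octamer 5 in place of 1 with a mismatch allowed. No paired analysis was possible because each list merges both replicates, and for the same reason no replicate could be left out.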

Other observations

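Further from the genes of the wider list, GREM1, which encodes a secreted BMP antagonist, had an OCT-2-only superenhancer at 21.2 kb and no region of the GFP cells within 6426 kb. BMP7, the gene of a BMP ligand, had an OCT-2-only region at 88.3 kb, against 807 kb in the GFP list. They were the only genes of the list added to the OCT-2-only count between 10 and 200 kb. Within 200 kb of such a region thus lay 2 of the 64 genes that are not members (3.12%), against 5.73% of all protein-coding genes. Members chosen for such regions had been taken out of the 64, which lowers that share, so nothing is read from it. TGFB1, which encodes the founding ligand, lay 98.9 and 99.2 kb from a shared superenhancer in the OCT-2 and the GFP list, and ID3, a relative of ID1, 133 kb in both, with an OCT-2 peak at 17.8 kb.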
